A study of Mus musculus with 10 samples.

Results

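The 9 complement genes C1ra, C1s1, C4b, C3, Cfb, Serping1, Cfi, Cd55 and Cd59a were followed in whole kidneys. They were found by symbol among the 13837 genes of the series, and were split by role into 5 activators (C1ra, C1s1, C4b, C3 and Cfb) and 4 inhibitors (Serping1, Cfi, Cd55 and Cd59a). The libraries came from mice of 3 months whose genotype was labelled RagC S74N (KI/+) (n = 5) or RagC S74N (+/+) (n = 5). The +/+ mice carried the unmodified gene. In the KI/+ mice 1 allele of Rragc held the serine-to-asparagine change, together with silent changes, in every cell of the body. RagC is a Rag GTPase that passes nutrient signals to the kinase complex mTORC1, and the study treats the variant as activating. The mice were C57BL/6 on a standard diet. The labels give no sex, and the Y-linked transcript Ddx3y was present in all 10 libraries, at 317 to 478 normalized counts.

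Complement is a cascade of plasma and cell surface proteins that tags and lyses targets and recruits leukocytes. The proteases C1r and C1s start the classical pathway by cleaving C4 and C2. All pathways meet at C3, whose cleavage product is amplified by factor B in the alternative pathway. Host cells hold the cascade back with the C1 inhibitor (Serping1), which blocks C1r and C1s, with factor I (Cfi), which degrades the active fragments of C3 and C4, with CD55, which dismantles the convertases, and with CD59, which blocks the membrane attack complex. Most plasma complement comes from the liver, and tubular cells of the kidney also make C3.

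Libraries held 6501552 to 7996087 reads on genes. Reads were primed at the poly(A) tail, so that a value does not grow with transcript length and levels can be set side by side between genes. A normalized count is a read count divided by the size factor of its library. All 33 genes listed for proximal tubule, thick ascending limb, distal convoluted tubule, principal cell, intercalated cell and podocyte were in the table. All 6 hepatocyte genes were there as well, so presence alone does not identify the tissue. The kidney was recognised by levels, with the proximal tubule gene Slc34a1 at 26565 to 33360 and Umod at 7760 to 28356 normalized counts. The 6 hepatocyte genes together summed to 1267 to 5151. Rragc itself stood at 285 ± 42.3 (SD, n = 5) normalized counts in +/+ and 216 ± 23.6 (SD, n = 5) in KI/+ kidneys (limma adjusted p = 0.0678). Reads at the 3′ end do not show which allele they came from, so this level does not check the labels. The summed level of the thick ascending limb markers was 26660 to 35503 in +/+ and 11865 to 19886 in KI/+ kidneys, and 4 of those 5 genes passed the test, 3 lower and 1 higher. Most of this sum was Umod, at 20405 to 28356 in +/+ and 7760 to 13505 in KI/+ kidneys. Slc12a1, the gene that did not pass (limma adjusted p = 0.438), overlapped between genotypes. Other segments changed as well. The distal convoluted tubule markers summed to 4955 to 5573 in +/+ and 3117 to 4415 in KI/+ kidneys. The principal cell markers summed to 1504 to 1932 in +/+ and 2061 to 3298 in KI/+ kidneys. Of the 33 epithelial markers limma called 14, 5 higher and 9 lower, against 3.69% of all genes tested. In bulk tissue, fewer cells of a type and less RNA per cell cannot be told apart.

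Of the 9 members, 8 passed the filter on low values and were tested with limma on log2(normalized count + 1). Of these 8, 1 passed an adjusted p of 0.05, and that gene was C3, which was higher in KI/+ kidneys. The background was 487 of 13197 genes tested, or 3.69%, with 220 genes, or 1.67%, called higher in KI/+. The 9th member, Cfi, was under the filter. Values did not overlap between genotypes for C3, Cd55 and Cfi among the 9, and for 4.86% of all 13837 genes. The median log2 difference was 0.09 over the 8 tested members and 0.00 over all genes.

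**Figure D1:**
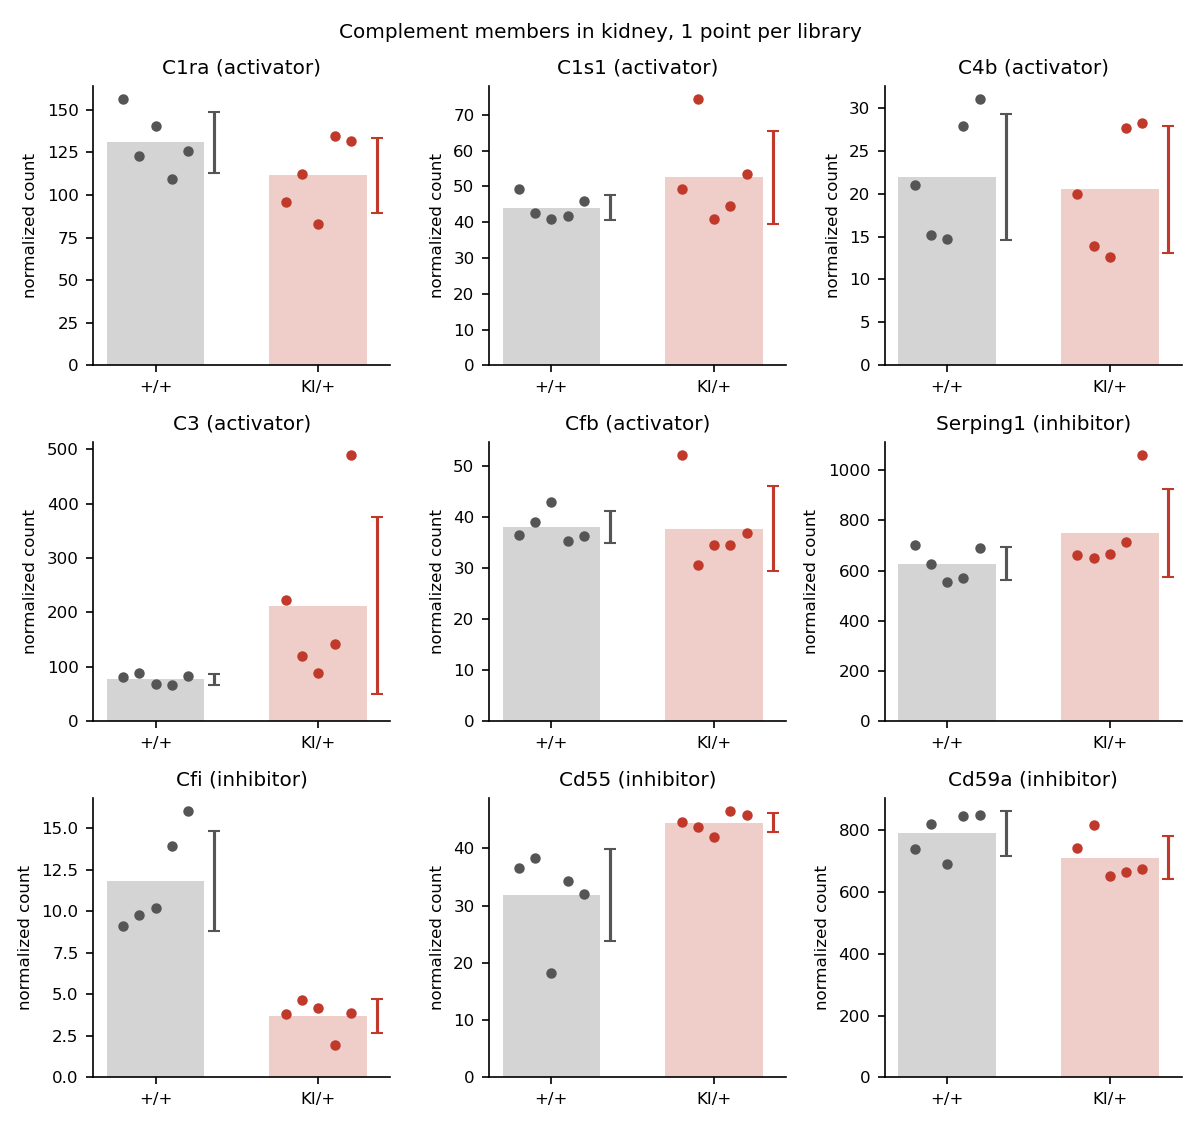
Normalized counts (y axis, from 0) of the 9 members in +/+ and KI/+ kidneys. Points are libraries (5 per genotype), bars are means and error bars SD. C3 reached 488 in KI/+ against at most 88.9 in +/+, Cfi stayed at or below 4.65 in KI/+ against at least 9.13 in +/+, and the Cd55 values of the genotypes lay apart as well.

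C3, the component on which all pathways converge, had normalized counts of 81.2, 88.9, 68.0, 66.5 and 83.3 in the +/+ kidneys. The KI/+ kidneys had 223, 120, 89.3, 142 and 488. All 5 KI/+ values lay above all 5 +/+ values, with replicates 1 and 5 far up and replicate 3 only just above the highest +/+ kidney. The means were 77.6 ± 9.87 (SD, n = 5) in +/+ and 213 ± 162 (SD, n = 5) in KI/+ kidneys, so that C3 rose to 2.74 times the +/+ mean. The difference was 1.18 on the log2(normalized count + 1) scale (95% interval 0.52 to 1.83; limma, adjusted p = 0.0418). Over 25 alternatives its adjusted p ran from 0.00788 to 0.200, and the call was lost in 11 of them. Of the 10 fits without 1 library, 3 kept the call (those without KI/+ replicate 2, 3 or 5), and it was lost without any single +/+ kidney or without KI/+ replicate 1 or 4.

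The 2 KI/+ libraries with the most C3 also stood apart in transcripts known from fat. Cfd encodes factor D (adipsin), the protease that cleaves factor B and is made mainly by adipocytes. Its normalized counts were 3.65, 27.6, 3.40, 8.58 and 52.3 in +/+ kidneys and 807, 6.50, 0.00, 21.7 and 3504 in KI/+ kidneys. Fabp4, a fatty acid carrier of adipocytes and endothelium, was at 179 to 217 in +/+ kidneys and at 604, 196, 94.6, 147 and 871 in KI/+ kidneys. It was the 1 gene in the table of the 6 adipocyte markers listed. The other 5 (Adipoq, Plin1, Cidec, Retn and Lep) were absent from the table, whose lowest gene mean was 5.64 normalized counts. No level of theirs can be set beside Cfd and Fabp4. Over both genotypes, Cfd and Fabp4 were thus high in KI/+ replicates 1 and 5 and in no other library. Neither gene passed the test (limma adjusted p = 0.584 for Cfd and 0.689 for Fabp4). Without these 2 libraries the C3 difference was 0.57 (95% interval 0.21 to 0.94; limma adjusted p = 0.106), with the 3 remaining KI/+ kidneys at 120, 89.3 and 142. The part of fat in the C3 values was not tested.

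**Figure D2:**
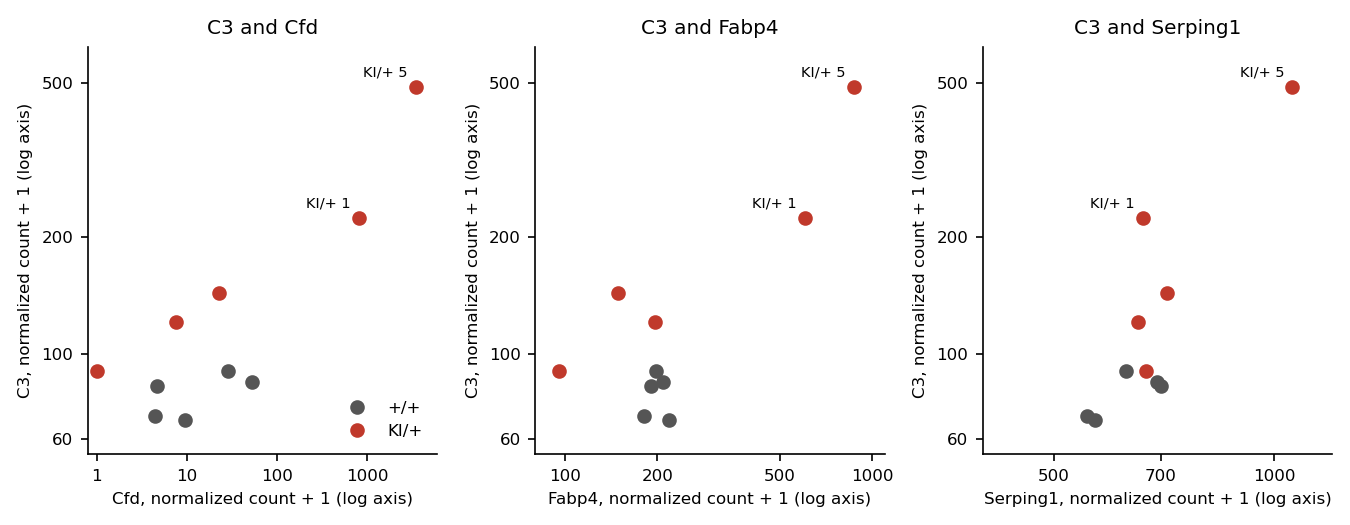
C3 (y axis) against Cfd, Fabp4 and Serping1 (x axes), all as normalized count + 1 on log axes, with 1 point per library. KI/+ replicates 1 and 5, named in the panels, held the most C3 and also 807 and 3504 Cfd and 604 and 871 Fabp4, and replicate 5 held the most Serping1.

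Once each genotype mean had been subtracted, the genes whose levels followed C3 most closely over the 10 libraries were Gsta4, Sema3c, Gm48582, Dcn and Acaca, among 9135 genes whose mean reached 50 normalized counts. Their Pearson correlations with C3 on the log2 scale were 0.97, 0.95, 0.94, 0.94 and 0.94. Without KI/+ replicate 5 they were 0.90, 0.90, 0.85, 0.78 and 0.75. Cfd came next, at 0.93 with all libraries and 0.94 without that replicate, and Fabp4 was at rank 11. Of the other members only Serping1, C1ra and Cd59a reached that mean of 50, and the rest were not compared. The closest of these was Serping1, at rank 90, and its correlation dropped from 0.81 to 0.28 without KI/+ replicate 5. Acaca encodes the acetyl-CoA carboxylase of fatty acid synthesis, Dcn the matrix proteoglycan decorin, Sema3c a semaphorin and Gsta4 a glutathione transferase. The labels do not say whether the 10 libraries were prepared together. The 2 high KI/+ kidneys weigh on the correlations over all libraries, and KI/+ replicate 1 still weighs on those without replicate 5. Correlations without both kidneys were not computed, and those shown are given as a description.

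The other activators did not pass the test. C1ra, the protease C1r, was at 156, 123, 141, 109 and 126 normalized counts in +/+ kidneys and at 95.8, 112, 83.0, 134 and 131 in KI/+ kidneys. The ranges overlapped, and 2 KI/+ kidneys lay below all +/+ kidneys. The difference was -0.24 (95% interval -0.55 to 0.06; limma adjusted p = 0.477). C1s1, the protease C1s, was at 40.8 to 49.3 in +/+ and at 41.0 to 74.3 in KI/+ kidneys. Its difference was 0.22 (95% interval -0.14 to 0.58; limma adjusted p = 0.621). Single kidneys moved both values, since C1s1 was at 0.09 without KI/+ replicate 2 and C1ra at -0.15 without KI/+ replicate 3.

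C4b, the C4 protein cleaved by C1s, was at 21.0, 15.1, 14.7, 27.9 and 31.0 normalized counts in +/+ kidneys and at 19.9, 13.9, 12.6, 27.7 and 28.2 in KI/+ kidneys. Both genotypes spanned nearly the same range. Cfb, the protease of the alternative pathway convertase, was at 36.5, 39.1, 43.1, 35.4 and 36.3 in +/+ kidneys and at 52.2, 30.7, 34.7, 34.6 and 37.0 in KI/+ kidneys. KI/+ replicate 1 lay above all +/+ kidneys and 3 KI/+ kidneys lay below all of them. The differences were -0.11 for C4b (95% interval -0.71 to 0.50; limma adjusted p = 0.910) and -0.03 for Cfb (95% interval -0.40 to 0.34; limma adjusted p = 0.963). For Cfb the interval excludes a change as large as that of C3, whose estimate was 1.18. In KI/+ replicate 5, where C3 was at 488, Cfb was at 37.0.

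Some members share sequence with a close copy, and their reads may be split. The last 400 bases of the C4b transcript were 98.2% identical to C4a over 399 aligned bases, with an unbroken identical run of 131 bases. C4a was itself in the table at 5.79 ± 3.42 (SD, n = 5) normalized counts in +/+ kidneys. For C1s1 and its copy C1s2 the identity was 96.5% over 342 bases. C1ra and C1rb shared 81 aligned bases at 97.5%. Values of C4b and C1s1 are therefore uncertain as to the copy they came from. Cd55 with Cd55b and Cd59a with Cd59b shared no identical run longer than 10 bases in that stretch.

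Cfi, the protease that inactivates the C3 and C4 fragments, was the member with the lowest level. Its normalized counts were 9.13, 9.78, 10.2, 13.9 and 16.0 in +/+ kidneys, which were 10, 11, 9, 13 and 15 reads. The KI/+ kidneys had 3.79, 4.65, 4.20, 1.98 and 3.89, which were 4, 5, 4, 2 and 4 reads. Every KI/+ kidney lay below every +/+ kidney, and the KI/+ mean of 3.70 ± 1.02 (SD, n = 5) was 0.313 times the +/+ mean of 11.8 ± 3.00 (SD, n = 5). Because only 3 libraries reached 10 normalized counts, Cfi had been left out by the filter of at least 10 in at least 5 libraries. With no filter the difference was -1.45 on the log2(normalized count + 1) scale (95% interval -2.20 to -0.69), with an adjusted p of 0.0304 by limma, where 3.59% of 13837 genes were called. On the recovered reads, edgeR gave an adjusted p of 0.0152 (3.48% of genes called) and DESeq2 gave 0.0181 (4.69% called). Without KI/+ replicates 1 and 5 the 3 remaining KI/+ kidneys were at 4.65, 4.20 and 1.98. At 2 to 15 reads per library the size of the change is loosely fixed.

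Serping1, the C1 inhibitor, was at 700, 626, 555, 569 and 691 normalized counts in +/+ kidneys and at 661, 650, 667, 713 and 1059 in KI/+ kidneys. All but KI/+ replicates 4 and 5 lay within the +/+ range, and replicate 5 stood alone at the top. The difference was 0.24 (95% interval -0.02 to 0.50; limma adjusted p = 0.390) and 0.11 without KI/+ replicates 1 and 5. Of the 2 targets of this inhibitor among the members, C1ra was lower and C1s1 higher in the KI/+ mean.

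Cd55, the decay-accelerating factor of the cell surface, was at 36.5, 38.2, 18.1, 34.3 and 32.0 normalized counts in +/+ kidneys. In KI/+ kidneys it was at 44.6, 43.7, 42.0, 46.5 and 45.7. The groups did not overlap and the KI/+ values lay close together, while +/+ replicate 3 was far below the rest of its group. The means were 31.8 ± 8.01 (SD, n = 5) and 44.5 ± 1.74 (SD, n = 5). The difference of 0.51 (95% interval 0.09 to 0.93) did not pass the test over all genes (limma adjusted p = 0.203, range 0.111 to 0.443 over 24 alternatives). It was 0.33 without +/+ replicate 3.

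Cd59a, the membrane inhibitor of pore formation, was at 738, 820, 688, 846 and 849 normalized counts in +/+ kidneys and at 743, 817, 649, 664 and 674 in KI/+ kidneys. The ranges overlapped and 3 KI/+ kidneys lay below all +/+ kidneys. Its difference was -0.15 (95% interval -0.34 to 0.04; limma adjusted p = 0.475). This interval was the narrowest of the 8 tested members.

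In +/+ kidneys the order of levels was Cd59a at 788, Serping1 at 628, C1ra at 131, C3 at 77.6, C1s1 at 44.1, Cfb at 38.1, Cd55 at 31.8, C4b at 21.9 and Cfi at 11.8 normalized counts. The ranges of neighbours overlapped for Cd59a and Serping1, and for each step from C1s1 down to Cfi. They did not overlap from Serping1 to C1ra, from C1ra to C3 or from C3 to C1s1. The highest values thus belonged to the inhibitors of the first and the last step. By KI/+ means, Serping1 and Cd59a exchanged places, as did C3 and C1ra, and Cd55 and Cfb.

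Activators and inhibitors were then set against each other. The median log2 difference was -0.03 over the 5 activators and 0.24 over the 3 tested inhibitors, and 0.04 over all 4 inhibitors with Cfi at its unfiltered value. Without C3 the median of the 4 remaining activators was -0.07. As a mean per kidney, the activators were shifted from the +/+ mean by -0.27 to 0.66 in KI/+ kidneys and by -0.10 to 0.12 in +/+ kidneys. The inhibitors were shifted by -0.39 to -0.07 in KI/+ and by -0.32 to 0.19 in +/+ kidneys. Leaving Cfi out, the 3 other inhibitors were shifted by 0.08 to 0.36 in KI/+ kidneys, so that the sign of the inhibitor mean was set by the 1 gene with the fewest reads. The activator mean minus the inhibitor mean was 0.42 ± 0.31 (SD, n = 5) in KI/+ and ranged from -0.14 to 0.22 in +/+ kidneys, with 2 of 5 KI/+ kidneys within that range. It rested on C3 and Cfi. Without C3 the activators were shifted by -0.39 to 0.17 in KI/+ kidneys, and with both genes left out the difference turned to -0.24 ± 0.15 (SD, n = 5) in KI/+ kidneys, against -0.25 to 0.29 in +/+ kidneys.

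**Figure D3:**
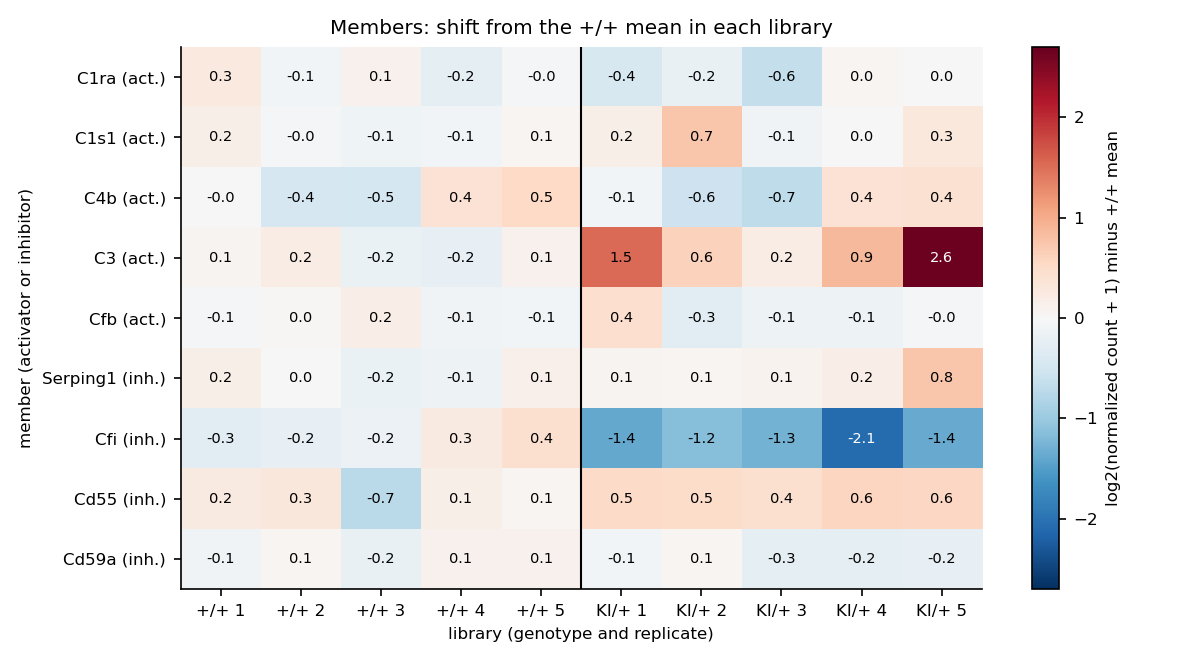
Shift of each member (rows) in each library (columns) from its +/+ mean, in log2(normalized count + 1), where red is higher and blue lower. C3 was above and Cfi below the +/+ mean in all 5 KI/+ kidneys, and the other activators scattered around 0.

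Set against single inhibitors, the ratio of C3 to Serping1 was 0.116 to 0.142 in +/+ and 0.134 to 0.461 in KI/+ kidneys, and that of C3 to Cd55 was 1.94 to 3.75 in +/+ and 2.13 to 10.7 in KI/+ kidneys. The genotypes overlapped in both.

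In the wider pathway, 35 of 59 listed complement genes were in the table and 33 were tested. Of these, limma called 2, both higher in KI/+ (C3 and Mbl1), and did not call 31, while it called 3.69% of all genes tested. With the same filter edgeR and DESeq2 called 3 each, adding Cfd, while they called 3.64% and 4.91% of all genes. The 33 differences split into 17 above and 16 below 0, with a median of 0.01. Mbl1, a mannose-binding lectin that starts the lectin pathway, was at 34.7, 36.5, 21.5, 22.5 and 39.5 normalized counts in +/+ kidneys and at 80.6, 44.6, 77.8, 38.5 and 55.5 in KI/+ kidneys. In 4 of 5 KI/+ kidneys it lay above all +/+ kidneys. The difference was 0.90 (95% interval 0.41 to 1.40; limma adjusted p = 0.0410), and 0.75 with an adjusted p of 0.215 without KI/+ replicates 1 and 5. Of the 10 fits without 1 library, 5 kept the Mbl1 call, and it was lost without +/+ replicate 3 or 4 or KI/+ replicate 1, 3 or 5.

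By role, limma called 0 of 8 tested genes of the classical pathway, with 2 at an unadjusted p under 0.05 and 0 called by edgeR or DESeq2. The recognition subunits C1qa, C1qb and C1qc had differences of 0.07, 0.39 and 0.26, C1rl had -0.12, and C2, the partner of C4 in the C3 convertase, had -0.43 (limma adjusted p = 0.167). The untested C4a was at 8.33 ± 4.57 (SD, n = 5) in KI/+ kidneys. Beside Mbl1, the lectin pathway genes Masp1, Masp2 and Colec12 had differences of -0.44, 0.88 and 0.04. In the alternative pathway limma called 1 of 4 genes (C3), and edgeR and DESeq2 called 2 (C3 and Cfd). Cfp, which encodes the convertase stabiliser properdin, was at 7.94 to 19.3 in +/+ and at up to 34.1 in KI/+ kidneys, without overlap, with a difference of 0.70 (limma adjusted p = 0.183). For Cfd the fitted difference was 2.13 (95% interval -1.14 to 5.41), with the KI/+ excess in replicates 1 and 5. Cfd passed with edgeR and DESeq2 with the filter and without it (adjusted p = 0.0301 and 0.0306 with no filter), though 3 of its 5 KI/+ values lay at or below the +/+ maximum. Of the terminal pathway, C8a and C8g had differences of -0.10 and 0.13, and neither was called by any of the 3 tools or had an unadjusted p under 0.05.

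Among soluble regulators limma, edgeR and DESeq2 called 0 of 5 tested genes, with 1 at an unadjusted limma p under 0.05. Clu and Cpn1 had differences of 0.02 and -0.12. Susd4, a regulator of the classical convertase, was lower in the KI/+ mean, at 22.3 ± 9.31 (SD, n = 5) against 39.3 ± 6.54 (SD, n = 5) normalized counts, but missed the threshold (difference -0.89, limma adjusted p = 0.0900). Among membrane regulators the 3 tools called 0 of 5, with 1 (Cd55) at an unadjusted p under 0.05. Cr1l, which encodes the rodent regulator Crry, was at 557 ± 15.4 (SD, n = 5) and 561 ± 37.7 (SD, n = 5), with a difference of 0.01 (95% interval -0.16 to 0.17). Cd46 and Cd59b had differences of -0.43 and -0.02. Among receptors they called 0 of 5, with 2 at an unadjusted p under 0.05. Cr2, a receptor for C3 fragments, had a difference of 0.92 (limma adjusted p = 0.0716), and C3ar1, Itgax, Itgb2 and Cd93 had -0.24, 0.42, -0.02 and -0.20.

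**Figure D4:**
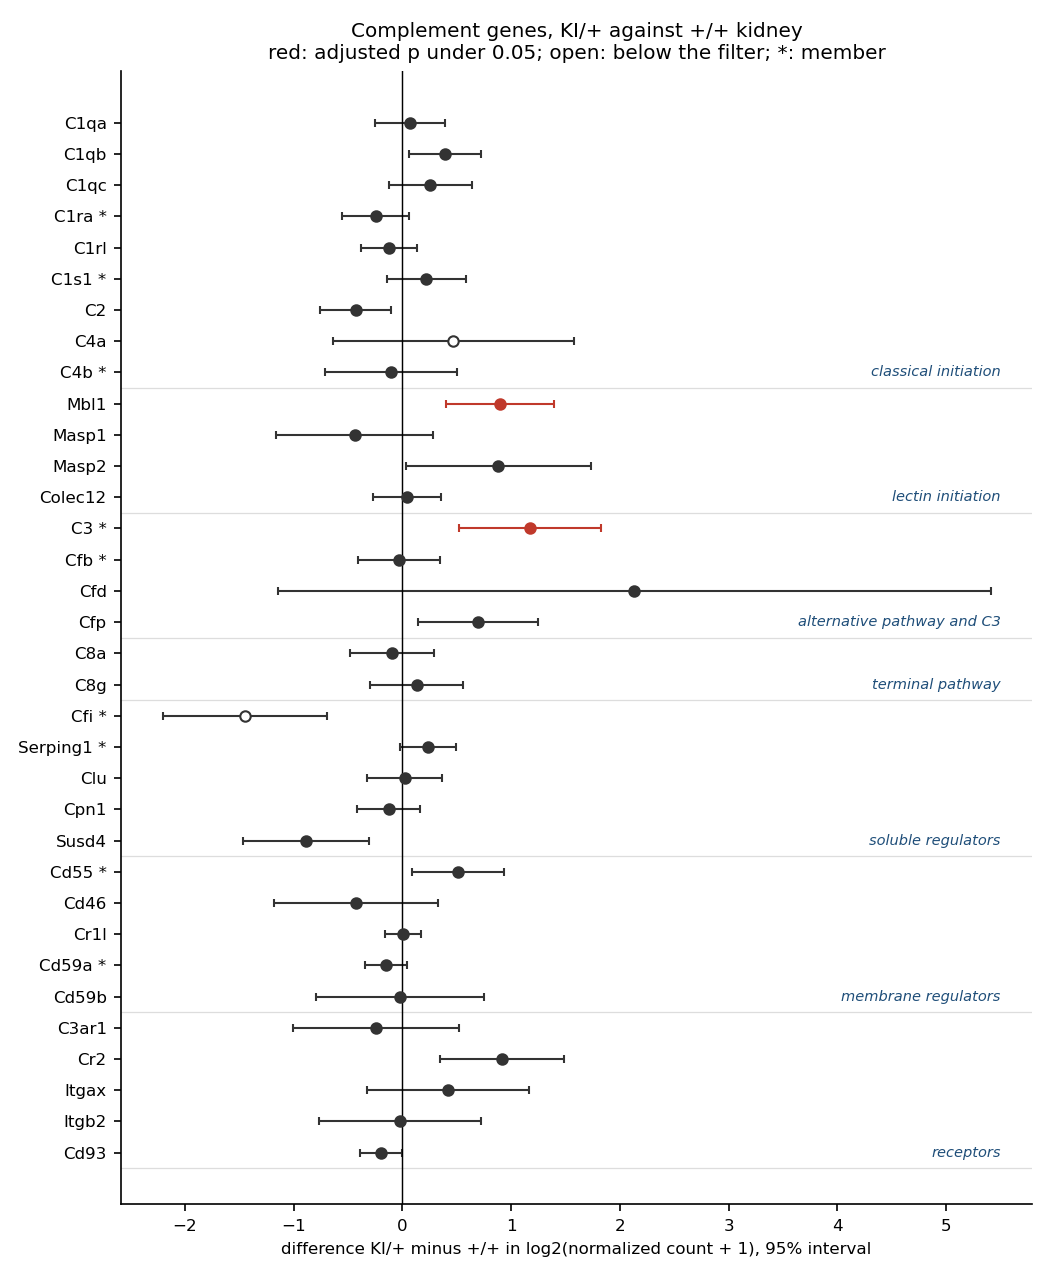
Difference KI/+ minus +/+ in log2(normalized count + 1) (x axis) with its 95% interval for 34 complement genes grouped by role (y axis). Red marks the 2 genes with an adjusted p under 0.05 (C3 and Mbl1), open points the 2 genes below the filter (Cfi and C4a), and asterisks the 9 members. Most intervals cover 0.

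Genes that are known to raise complement transcription, such as cytokine receptors and the factors Nfkb1 and Cebpb, were called in 0 of 17 cases by limma, edgeR or DESeq2 (0 at an unadjusted limma p under 0.05; median difference 0.07). Of the acute phase genes 1 of 7 tested was called by each of the 3 tools. That was Lcn2 (lipocalin 2), at 8.62 ± 1.13 (SD, n = 5) normalized counts in +/+ and 33.5 ± 22.3 (SD, n = 5) in KI/+ kidneys, with a difference of 1.67 (limma adjusted p = 0.00406). Lcn2 kept its call without KI/+ replicates 1 and 5 (1.28, limma adjusted p = 0.0319). Haptoglobin (Hp) was under the filter, at 0.00 to 6.23 in +/+ kidneys and at 68.3, 13.9, 4.20, 19.8 and 162 in KI/+ kidneys, highest in the same 2 replicates as C3. With no filter its difference was 3.06 and its adjusted p was 0.0222 by limma, 0.00896 by edgeR and 0.00315 by DESeq2. Of the contact and kinin genes, whose protease Klkb1 is another target of the C1 inhibitor, 1 of 5 was called, Kng2 (kininogen 2), which fell by 0.49 (limma adjusted p = 0.0278). Kng2 kept its call in 5 of 10 fits without 1 library, losing it without +/+ replicate 2, 3, 4 or 5 or KI/+ replicate 1, and without KI/+ replicates 1 and 5 it was at -0.31 (adjusted p = 0.0779). Klkb1 had a difference of 0.43 (adjusted p = 0.395).

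Markers of leukocytes and stroma were read beside these values. Of the endothelial, fibroblast, macrophage, neutrophil and lymphocyte lists, limma, edgeR and DESeq2 called 0 of 20 tested genes, with 3 at an unadjusted limma p under 0.05. The summed macrophage markers were at 1048 to 1380 in +/+ and 1124 to 1396 in KI/+ kidneys. Most of this sum was Csf1r, at 774 to 1161 in KI/+ kidneys and lowest of all in KI/+ replicate 5. In that kidney Lyz2 was at 507, against 153 to 253 in the other 9 kidneys, and Adgre1 and Fcgr1 were also highest. Cd68 and Mrc1 lay there within the range of the other kidneys. The summed fibroblast markers were at 2112 in KI/+ replicate 5 and at 815 to 1175 in the other 9 kidneys. The 2 neutrophil markers in the table summed to 290 in KI/+ replicate 1 and to 22.4 to 91.6 in the others. The 2 lymphocyte markers in the table summed to 687 in KI/+ replicate 5, where Jchain, the joining chain of antibodies, was at 513, and to 155 to 308 in the other 9 kidneys. The 6 genes listed for hepatocytes, which make most plasma complement, summed to 1267 to 1620 in +/+ and 1966 to 5151 in KI/+ kidneys, and limma and DESeq2 called 1 of the 6 and edgeR 2. In replicate 5, the highest, 4588 of the 5151 came from Ttr (transthyretin). Without Ttr that kidney had the lowest KI/+ sum, 563 against 964 to 1489 in the other KI/+ and 442 to 683 in the +/+ kidneys. Serpina1a was at 203 in that kidney and made up most of the sum in the other KI/+ kidneys, at 670 to 952. The hepatocyte genes did not move together. In KI/+ replicate 3 Serpina1a was the highest of all libraries, while Apoa1 (1.05) and Fgb (5.25) were the lowest. The part of these cells in the C3 values was not tested.

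For 5 of the 9 members RefSeq gives a promoter on the mouse build GRCm38.p6, which is older than the build of the expression values. The 250 bases before the start are shown for C3 (chr17:57228137-57228386, minus strand) and Cd55 (chr1:130462745-130462994, minus strand), the members among these 5 whose genotypes did not overlap. Capitals mark a match to a searched motif.
C3: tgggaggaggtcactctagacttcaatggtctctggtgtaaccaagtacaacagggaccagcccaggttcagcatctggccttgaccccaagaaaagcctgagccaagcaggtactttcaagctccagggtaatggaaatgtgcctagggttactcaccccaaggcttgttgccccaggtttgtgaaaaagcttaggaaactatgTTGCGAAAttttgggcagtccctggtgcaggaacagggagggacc
Cd55: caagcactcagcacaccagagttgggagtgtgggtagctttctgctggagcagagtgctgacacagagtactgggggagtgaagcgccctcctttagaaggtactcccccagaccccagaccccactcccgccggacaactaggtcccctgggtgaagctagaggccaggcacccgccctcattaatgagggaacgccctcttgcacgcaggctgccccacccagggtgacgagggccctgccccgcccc

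Motifs of factors known to act on complement genes or on RagC signalling were searched on both strands. They were TTGCNNAA for C/EBP, TTCNNNGAA for STAT, GAAANNGAA for IRF, GGGANNTTC for NF-kappaB and CACGTG, the E-box of MiT/TFE factors. The C3 window held 1 match, the C/EBP motif, from base -45 to -38 before the start. Of 32851 promoters 9.56% held that motif. The Cd55 window held none of these letters. The C/EBP motif was also in 1 of the 2 promoters listed for C1s1 and the IRF motif, in 7.13% of promoters, in that of Cd59a. The STAT, NF-kappaB and E-box motifs, in 7.02%, 3.23% and 6.02% of promoters, were in none of the 6 windows of these 5 members. Cebpb and Cebpd, which encode C/EBP factors, had differences of 0.29 (limma adjusted p = 0.623) and -0.16 (0.848).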

How the data were processed

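Total RNA of whole kidney was made into QuantSeq 3′ libraries, 1 per sample. Per the labels, reads were handled with FastQC 0.11.7, TopHat2 2.0.10, Bowtie 1.0.0, SAMtools 0.1.19 and HTSeq 0.6.1 on GRCm39, counted with strand, and scaled with DESeq2. The authors deposited a signal per gene, that is, reads over the library's size factor. All 10 columns were matched by title and 0 were left over. In every library 100% of values were whole reads after undoing the division (tolerance 0.01 reads).

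Values were tested as log2(value + 1) with limma 3.58.1 (R 4.3.3, eBayes with trend, two-sided, no covariate) in genes with at least 10 normalized counts in at least 5 libraries, with Benjamini-Hochberg adjustment over all genes tested and a threshold of 0.05. A fold change on this scale understates changes of low genes. edgeR 4.0.16 called 480 genes and DESeq2 1.42.0 called 648 on the recovered reads. Scripts were tested on simulated data. The other alternatives were pseudocounts of 0.5 and 5, dropping the filter, a minimum mean of 50, TMM, quantile normalization, no trend, robust variances, the run of library codes, and leaving out each library. Leaving out KI/+ replicates 1 and 5 together, edgeR and DESeq2 with no filter, and sums without C3, Cfi or Ttr were chosen after seeing the data.

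The members and gene lists were chosen with earlier results of these data known. Named genes were the members, the complement list, called genes of the context lists and the 5 genes closest to C3, while markers were given as counts. A further gene of the complement list enters the counts and is not reported here. Cfd, Fabp4, Hp, Ttr, Jchain, Umod, Slc12a1, Klkb1, Cebpb and Cebpd were named beside them for their values or roles. The same holds for Slc34a1, Csf1r, Lyz2, Adgre1, Fcgr1, Cd68, Mrc1, Serpina1a, Apoa1 and Fgb. The motifs were picked after the promoters of the members had been seen. Replicates were numbered in order of accession, and the labels do not say more of their independence than the sample, so p-values measure the spread between samples. No library pair of a genotype held identical values, and all differed by more than sampling noise (chi-square of at least 2.16 per degree of freedom). Reads without molecular identifiers are not independent molecules. Transcripts of the GENCODE set on the older build served only to compare copies, with python 3.11.15, pandas 2.3.3 and biopython 1.88.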

Additional observations from a re-analysis of the deposited data

Results flagged for a closer look

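Values of 35 complement genes were screened in each genotype, 70 groups of 5 libraries in all, for a library whose gap to its nearest neighbour took more than 0.71 of the range of its group (Dixon's 95% limit for 5 values). Chance flags about 1 in 20 groups, and 6 groups were picked out. Among members this was Serping1 in KI/+ replicate 5, at 1059 normalized counts against 650 to 713 in the other KI/+ kidneys, the kidney that also held the most C3. Cfd in the same kidney was at 3504, against 807 for the next. The remaining 4 were C1qa in +/+ replicate 1 at 265, Colec12 in +/+ replicate 5 at 61.9, Cfp in +/+ replicate 3 at 7.94 and Cr1l in KI/+ replicate 1 at 496. C3 itself was not picked out, since its second highest KI/+ value of 223 lay nearer to the rest.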

How the results depend on the processing

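The sign of C3, Cfi, C1ra, C1s1, Serping1, Cd55 and Cd59a held under all alternatives that gave a value, while C4b and Cfb, never called, changed sign in 3 each. Without 1 library C4b ranged from -0.24 to 0.040 (above 0 without +/+ replicate 5 or KI/+ replicate 2 or 3) and Cfb from -0.15 to 0.038 (above 0 without +/+ replicate 3 or KI/+ replicate 2), and Cfb was at 0.016 with the covariate for library codes. The C3 call was lost with no trend (1.18, adjusted p = 0.153), with robust variances (1.18, 0.200), in the 7 libraries of the later run of codes (1.18, 0.168) and without KI/+ replicates 1 and 5 (0.57, 0.106). The cause was not tested. Leaving out 1 library gave C3 differences of 0.81 to 1.42. Cfi was at -0.94 with a pseudocount of 5, which shrinks low values by its construction, and at -1.53 to -1.29 without 1 library. Members called were 2 with no filter by limma, edgeR or DESeq2 (C3 and Cfi), 0 with no trend, robust variances, the later codes alone or both KI/+ libraries left out, and 0 to 1 without 1 library. The complement list had 3 calls with edgeR, DESeq2, the covariate or limma with no filter, 4 with no filter by edgeR or DESeq2 (C3, Mbl1, Cfd and Cfi), 1 with a mean of at least 50 or robust variances, 0 with no trend, the later codes alone or both KI/+ libraries left out, and 0 to 2 without 1 library. Of all genes tested, 2.21% were called with no trend, 6.30% with the covariate and 2.24% to 3.53% without 1 library. The activator minus inhibitor median, -0.27, was 0.42 with a mean of at least 50, where fewer members remained, -0.47 in the later codes alone and -0.39 to -0.13 without 1 library. No paired analysis was possible because replicate numbers do not come from the labels. Depth limits Cfi, with 2 to 15 reads per library, and C4a, with 1 to 13.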
